A study of Mus musculus with 24 samples.

Results

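The comparison described here is between RNA libraries of Rps6 het forelimbs without and with p53. It rests on 6 of the 24 libraries of the series: 3 of Rps6 het, Trp53 null limbs (Prx1Cre;Rps6lox/+;Trp53-/-) and 3 of Rps6 het, Trp53 WT limbs (Prx1Cre;Rps6lox/+;Trp53+/+), chosen by genotype and library kind alone. Both groups carry the Prx1Cre transgene and 1 floxed Rps6 allele, and they differ in Trp53. The other RNA libraries, 3 of Rps6lox/+;Trp53+/+ and 3 of Rps6lox/+;Trp53-/- limbs, carry the same floxed allele without Cre and are called Rps6 WT, Trp53 WT and Rps6 WT, Trp53 null. In contrasts between Rps6 genotypes, loss of the Rps6 allele and presence of Cre cannot be told apart. All limbs were taken from mouse embryos at E10.5, and each library is a pool of limbs from a pair of embryos of one genotype. RNA was sequenced after depletion of ribosomal RNA, and ribosome-protected fragments (RPF, the RNA pieces covered by ribosomes) were sequenced from the same lysates.

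The product of Rps6 is part of the small ribosomal subunit, and Prx1Cre expresses Cre recombinase in the mesenchyme of the early limb bud, so other cells of the limb (ectoderm, vessels, blood) keep both Rps6 alleles. When ribosome assembly is disturbed, ribosomal proteins that are not built into ribosomes can bind Mdm2, the ubiquitin ligase that keeps p53 low, and p53 then accumulates. As a transcription factor p53 is known to raise inhibitors of the cell cycle, inducers of cell death and its own inhibitors. Loss of 1 copy of a ribosomal protein gene with and without p53 therefore asks how much of the RNA response to the ribosomal defect depends on p53. In these limbs fewer cells of a type and less RNA per cell cannot be told apart, since whole limbs were lysed.

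The deposited table names its 21960 rows by versioned Ensembl transcript ID, and 0 of these IDs matched the gene tables used here. Transcripts are therefore given by ID, with no gene name or function. Rps6 and Trp53 could not be checked in each library, the labelled tissue was not checked against its markers, and the lists of p53 targets, ribosomal protein genes, cell cycle genes and limb patterning genes were not tested. Reads that fit near-identical copies or overlapping genes may have been divided between rows, which leaves the change of any 1 transcript uncertain.

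Total counts were 18610294 to 29104669 in the 3 Rps6 het, Trp53 null libraries and 19337252 to 22088809 in the 3 Rps6 het, Trp53 WT libraries. A floor of 3 counts corresponded to 0.103 to 0.161 CPM (a count scaled to its library total) in these 6 libraries, for counting error only. The 10 most abundant rows held 5.61% to 6.61% of the counts of each. The spread between pools was alike, with a median SD of 0.0991 (log2 CPM) over transcripts in Trp53 null and 0.0916 in Trp53 WT. In a principal component analysis of the 6 libraries the first component carried 44.4% of the variance and parted the genotypes, with scores of 13.83 to 21.33 in Trp53 null and −18.79 to −17.38 in Trp53 WT. The lowest of the Trp53 null scores belonged to pool 2, which is also the shallowest of the 6 libraries. The second component, with 20.2%, spread the pools within each genotype.

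The Rps6 labels of some Trp53 null pools are treated here as in doubt. Each Trp53 null pool's deviation from the mean of the other 5 was correlated with the Rps6 change seen in Trp53 WT, which uses none of these pools, over the 3580 transcripts called for that change. Pool 3 of Rps6 het, Trp53 null had r = −0.29, the lowest of the 6, while pools 1 and 2 of that genotype had 0.16 and 0.42. In Rps6 WT, Trp53 null pool 2 had r = 0.04, the highest of its genotype, and pools 1 and 3 had −0.06 and −0.23. Whether pool 3 of Rps6 het and pool 2 of Rps6 WT were exchanged was not tested here. The correlations cannot decide it, as the deviations of the 6 pools are tied to one another. A rightly labelled pool also need not carry the Rps6 change once Trp53 is lost. The numbers of RNA calls, the directions in Rps6 WT and the nearness of the group levels are also given without both. Levels, shares of counts, sizes of change, overlaps of calls and RPF results are given with all pools only.

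Loss of p53 in Rps6 het limbs changed many transcripts in both directions, most of them by little. Of 14411 transcripts tested with edgeR's quasi-likelihood test, 1919 (13.3%) had a Benjamini-Hochberg adjusted p-value under 0.05 and are said to be called. In Trp53 null, 1024 (7.11%) were lower and 895 (6.21%) were higher, against a median log2 fold change of −0.0022 over all transcripts tested. The 3 pools of a genotype all lay on one side of the 3 pools of the other for 999 of the 1024 lower and 879 of the 895 higher transcripts. Over all transcripts tested, such a separation was seen for 15.4% in the lower and 14.5% in the higher direction. The calls were made on these same pools, so the separation of called transcripts describes them and is not separate support. The p-values measure the spread between pools of embryos.

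The number of calls depended on single pools. Without pool 1 of Rps6 het, Trp53 WT 1151 transcripts were called (612 lower, 539 higher). Without pool 3 of Rps6 het, Trp53 null, the pool in doubt, there were 1290 calls, of which 582 were higher. With pool 2 of Rps6 WT, Trp53 null also left out, 1221 were called (642 lower, 579 higher). A fit of the 6 Rps6 het libraries alone, with fewer pools to estimate the spread, gave 1224 calls (635 lower, 589 higher).

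Transcripts lower in Trp53 null had the longer tail. Their median log2 fold change was −0.31, at a median level of 55.4 CPM with Trp53 and 41.9 CPM without. The higher transcripts had a median of 0.34, at 25.7 CPM with Trp53 and 31.9 CPM without. Changes of at most 0.25 on the log2 scale made up 35.1% of the lower and 31.5% of the higher calls. A change over 1, which is a doubling or a fall to 50% or less, was called for 93 lower transcripts (0.645% of those tested) and 60 higher ones (0.416%). Past 2 on this scale there were 25 lower and 4 higher transcripts. The 4 higher ones had a median of 0.178 CPM in Rps6 het, Trp53 WT, near the floor, so their sizes are uncertain. The 25 lower ones had a median of 0.771 CPM in Rps6 het, Trp53 null. Of these, 1 had at most 3 counts in each Rps6 het, Trp53 null pool.

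**Figure D1:**
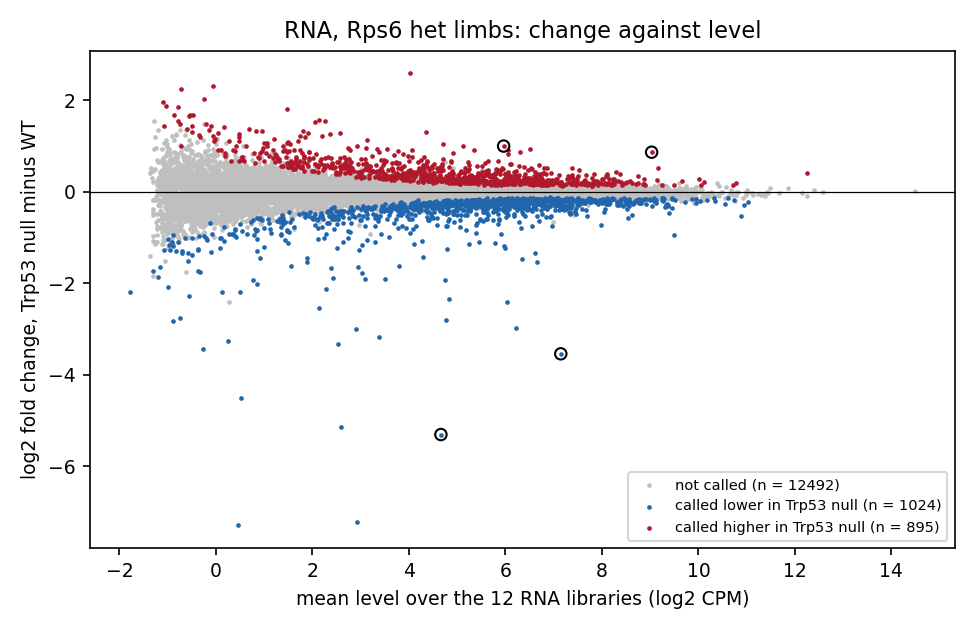
Log2 fold change of RNA between Rps6 het, Trp53 null and Rps6 het, Trp53 WT limbs (y axis) against the mean level over the 12 RNA libraries in log2 CPM (x axis), 1 point per transcript tested. Blue points are the 1024 transcripts called lower and red points the 895 called higher in Trp53 null, and open circles mark the 4 transcripts named in the text. The points furthest from 0 lie below it.

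Calls were spread over the range of abundance, with large changes mostly among rarer transcripts. Transcripts were split into 5 groups by their mean level over all 12 RNA libraries. In the lowest group, with a median of 0.906 CPM, 2.95% were called lower and 2.53% higher, and the median size of a called change was 1.03 on the log2 scale. The highest group had a median of 151 CPM, and there 10.9% were called lower and 6.77% higher, with a median size of 0.21. The median SE fell from 0.28 in the lowest to 0.05 in the highest group, so small changes of rare transcripts were not detectable at this depth. Of the 93 lower transcripts over 1 on the log2 scale, 18 lay in the upper 3 groups, against 3 of the 60 higher ones. No row held 0 counts in all 3 pools of one Rps6 het genotype and at least 10 counts in each pool of the other (0 rows in each direction).

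As a share of all counts of transcripts tested, the 1024 lower transcripts made up 11.94% to 11.99% of each Rps6 het, Trp53 WT library and 9.873% to 10.09% of each Rps6 het, Trp53 null library. Their share was 9.821% to 10.24% in the 6 Rps6 WT libraries of both Trp53 genotypes. The 895 higher transcripts held 5.511% to 5.637% in Rps6 het, Trp53 WT and 6.58% to 7.202% in Rps6 het, Trp53 null, with 6.653% to 7.312% in Rps6 WT. For the 93 lower transcripts over 1 on the log2 scale the share was 0.256% to 0.265% in Rps6 het, Trp53 WT and 0.0705% to 0.0725% in Rps6 het, Trp53 null, with 0.0724% to 0.0876% in Rps6 WT. These shares describe transcripts chosen on the same Rps6 het libraries. In each case the Rps6 het, Trp53 WT libraries stood apart, while the Rps6 het, Trp53 null libraries overlapped with Rps6 WT libraries. For the 93 transcripts this overlap was with Rps6 WT, Trp53 null alone (0.07241% to 0.07415%). The Rps6 WT, Trp53 WT libraries lay above it, at 0.08467% to 0.08765%.

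Of the 2 lower transcripts with the smallest p-value, ENSMUST00000020576.7 had RNA levels of 423, 478 and 435 CPM in the 3 Rps6 het, Trp53 WT pools and 38.7, 36.3 and 39.4 CPM in the 3 Rps6 het, Trp53 null pools. All 3 Trp53 WT pools were high. The genotypes did not overlap, which was a condition for choosing each named transcript. The mean fell from 445 ± 29.1 CPM (SD, n = 3) to 38.2 ± 1.61 CPM, and the log2 fold change was −3.54 with an SE of 0.056 (adjusted p = 4.32e-16 from edgeR). In Rps6 WT limbs its level was 48.8 ± 1.54 CPM with Trp53 and 34.7 ± 1.19 CPM without, a smaller fall that was called as well (log2 fold change −0.49, SE 0.058, with an adjusted p = 0.00128 from edgeR). The change in Rps6 het less that in Rps6 WT was −3.05 ± 0.079 (SE; edgeR adjusted p = 9.08e-13). The order of the RNA levels, from high to low, was Rps6 het, Trp53 WT, then Rps6 WT, Trp53 WT, then Rps6 het, Trp53 null, then Rps6 WT, Trp53 null. Every pool of a genotype in this order lay above every pool of the next. The pools in doubt held 39.4 CPM (pool 3 of Rps6 het, Trp53 null) and 35.9 CPM (pool 2 of Rps6 WT, Trp53 null). The separation of the Trp53 null groups therefore depends on their labels. Its footprints fell too: RPF of Rps6 het limbs stood at 58.3 ± 6.49 CPM with Trp53 and at 4.59 ± 0.257 CPM without (log2 change −3.67, SE 0.11).

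ENSMUST00000037353.9 had RNA levels of 89.0, 99.5 and 91.6 CPM in the Rps6 het, Trp53 WT pools and 2.25, 2.82 and 2.13 CPM in the Rps6 het, Trp53 null pools. These are 1870 to 1956 counts per library with Trp53 and 52 to 63 without. The transcript was thus high in each Trp53 WT pool and low, though above the floor, in each Trp53 null pool. From 93.4 ± 5.47 CPM (SD, n = 3) to 2.40 ± 0.367 CPM, it fell 39.6-fold (log2 fold change −5.31, SE 0.11, with an adjusted p = 1.09e-14 from edgeR). Its level in Rps6 WT limbs was 3.46 ± 0.32 CPM with Trp53 and 2.38 ± 0.569 CPM without, and this difference of −0.57 ± 0.16 (SE) on the log2 scale was not called (edgeR adjusted p = 0.168). The 2 Trp53 null groups overlapped in their pools, as 1.86 to 2.99 CPM in Rps6 WT enclosed the Rps6 het values. The difference of the Trp53 change between the Rps6 genotypes was −4.74 ± 0.22 (SE; edgeR adjusted p = 2.83e-09). In footprints it went from 28.4 ± 1.95 to 0.746 ± 0.243 CPM in Rps6 het limbs (log2 fold change −5.19 ± 0.21 SE), with 5 to 12 RPF counts per Trp53 null library.

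ENSMUST00000090219.12, the higher transcript with the smallest p-value, had 30.4, 32.3 and 33.0 CPM in the Rps6 het, Trp53 WT pools and 66.0, 57.6 and 67.0 CPM in the Rps6 het, Trp53 null pools. Here the Trp53 WT pools were the low ones, without overlap by the rule of choice. The level rose from 31.9 ± 1.35 CPM (SD, n = 3) to 63.5 ± 5.14 CPM (log2 fold change 1.00, SE 0.064, with an adjusted p = 2.75e-08 from edgeR). With Rps6 intact it was 78.0 ± 4.80 CPM with Trp53 and 75.5 ± 1.76 CPM without, a difference of −0.05 ± 0.06 (SE) that was not called (edgeR adjusted p = 0.745). All 3 Rps6 het, Trp53 null pools lay below the lowest Rps6 WT pool, at 72.7 CPM. The pools in doubt held 67.0 CPM (pool 3 of Rps6 het, Trp53 null) and 73.5 CPM (pool 2 of Rps6 WT, Trp53 null). This separation therefore depends on their labels too. The Trp53 changes of the Rps6 genotypes differed by 1.04 ± 0.088 (SE; edgeR adjusted p = 2.15e-06). Its footprints rose from 12.1 ± 0.745 to 20.8 ± 3.64 CPM (log2 fold change 0.79 ± 0.12 SE).

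ENSMUST00000000476.14 is more abundant, with 298, 321 and 329 CPM in the Rps6 het, Trp53 WT pools and 565, 547 and 612 CPM in the Rps6 het, Trp53 null pools. Again the Trp53 WT pools were low, without overlap by the rule of choice. Its mean rose from 316 ± 16.0 CPM (SD, n = 3) to 575 ± 33.7 CPM, which is 0.86 on the log2 scale with an SE of 0.056 (adjusted p = 3.43e-08 from edgeR). In Rps6 WT limbs it stood at 620.3 ± 21.6 CPM with Trp53 and 581 ± 33.0 CPM without (edgeR adjusted p = 0.438), and the Rps6 het, Trp53 null pools overlapped with both of these groups. The Trp53 changes differed between the Rps6 genotypes by 0.96 ± 0.079 (SE; edgeR adjusted p = 1.83e-06). RPF of this transcript stood at 341 ± 9.50 CPM with Trp53 and rose to 626 ± 32.4 CPM without (log2 change 0.88, SE 0.042).

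**Figure D2:**
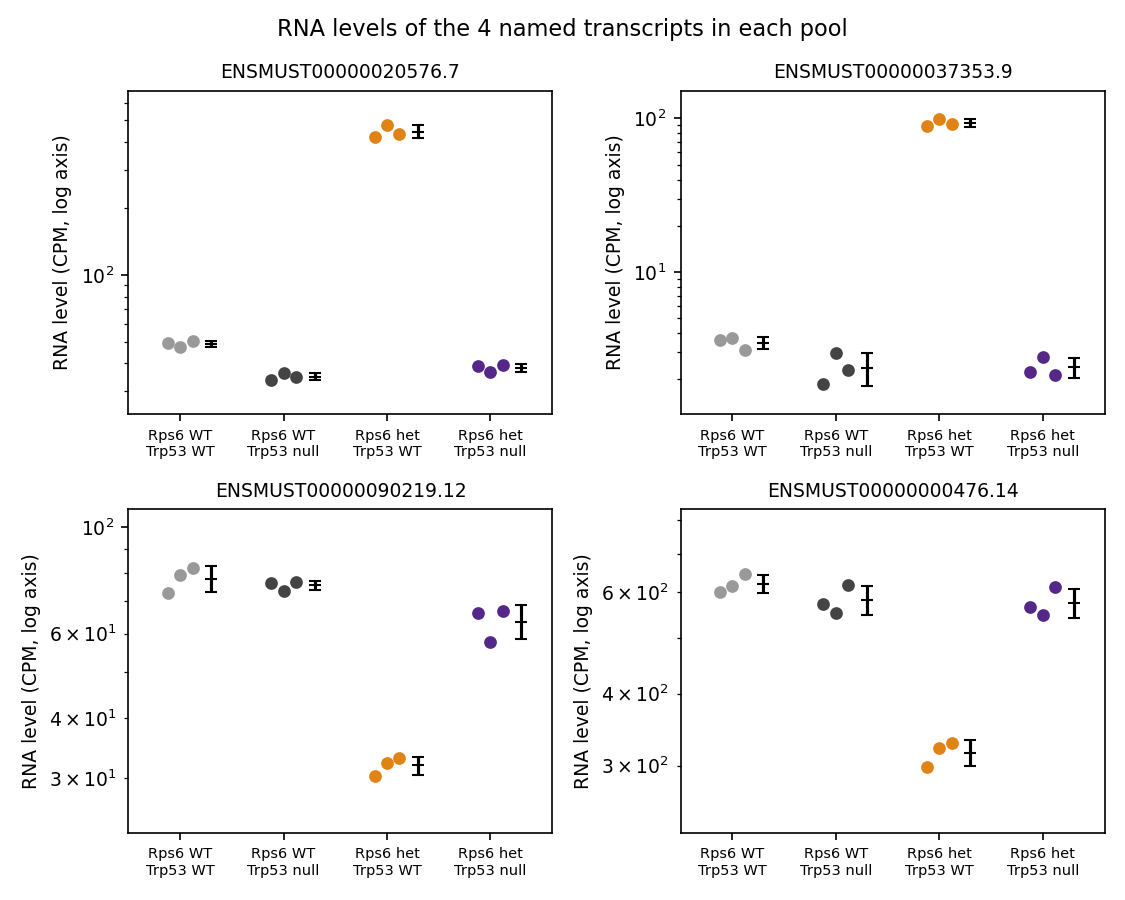
RNA level in CPM (log axis) of the 4 named transcripts in each of the 12 RNA pools, grouped by genotype, with the mean and SD of 3 pools beside the points. In each panel the Rps6 het, Trp53 WT pools (orange) stand apart from the pools of the other genotypes.

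The 15 lower and 15 higher transcripts with the smallest p-values among those without overlap differed in size. In the lower set the log2 fold changes had a median of −2.80, the smallest fall being 2.18-fold, and mean levels were 21.4 to 445 CPM in Rps6 het, Trp53 WT and 0.198 to 57.1 CPM in Rps6 het, Trp53 null. The higher set rose 1.35-fold to 2.95-fold, with a median of 0.91. All 15 of each set were also called in RPF, from the same lysates, in the same direction. Of the 12116 transcripts tested in both, 8.14% were called lower and 6.95% higher in RPF. The median RPF change was −2.45 in the lower and 0.88 in the higher set. With Rps6 intact, Trp53 loss was called for 2 of the 15 lower and 0 of the 15 higher transcripts, both by edgeR and by DESeq2, while 5 and 1 had an unadjusted edgeR p-value under 0.05, as had 2127 of all 14411 transcripts tested (14.8%). The medians there were −0.06 and −0.05.

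Loss of Trp53 with Rps6 intact uses 6 other libraries, so its changes can be set against those in Rps6 het. There 17 transcripts were called (0.118%), 8 lower (0.0555%) and 9 higher (0.0625%), and this number moved with the fit. With rare transcripts kept in the test 252 were called (222 higher), in a fit of the 6 Rps6 WT libraries alone 251 (220 higher) and by DESeq2 64, while leaving out pool 1, 2 or 3 of Rps6 WT, Trp53 null gave 8, 6 and 8. Of these, 10 were also called in Rps6 het, all in the same direction, which is 58.8% of the calls in Rps6 WT and 0.521% of those in Rps6 het. The 6 that were lower in both had a median log2 fold change of −2.76 in Rps6 het and −1.20 in Rps6 WT, and the 4 that were higher in both had 0.66 and 0.95. Each of these 4 changed more in Rps6 WT than in Rps6 het, and the interaction test called that difference for 0 of them by edgeR or DESeq2, with 1 at an unadjusted edgeR p-value under 0.05. The 7 called in Rps6 WT alone ranged from −0.17 to 0.23 in Rps6 het.

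Over the transcripts called in Rps6 het, the same loss of Trp53 had median changes near 0 with Rps6 intact. The median log2 fold change in Rps6 WT was 0.01 over the 1024 lower transcripts and −0.04 over the 895 higher ones. Of the lower transcripts 46.1% were also lower in Rps6 WT, against 49.3% of all transcripts tested, and of the higher ones 35.2% were also higher, against 50.7%. Without both pools in doubt the calls were made anew, which gave another set of 642 lower and 579 higher transcripts. Of these, 57.0% of the lower and 46.8% of the higher had the same direction in Rps6 WT, against 51.3% of all tested. Over the 93 lower transcripts past 1 on the log2 scale, 53.8% were also lower in Rps6 WT, with a median of −0.02. Across the 1919 called transcripts, which are not independent, the changes in the Rps6 genotypes had r = 0.094 and a slope of 0.033 in Rps6 WT on Rps6 het. Points in this relation come from separate pools, but share the fit and its library scaling. The difference between the Rps6 genotypes was tested directly and called for 1376 transcripts (9.55%) by edgeR, in a test that uses the same Rps6 het libraries. The Trp53 change was more negative in Rps6 het for 730 (5.07%) and more positive for 646 (4.48%). Single pools moved this number: it was 641 without pool 1 and 814 without pool 3 of Rps6 het, Trp53 WT, and 745 without pool 3 of Rps6 het, Trp53 null. Among the Rps6 WT pools it was 770 and 692 without pools 1 and 2 of Trp53 null and 650 without pool 3 of Trp53 WT. Without both pools in doubt the difference was called for 434 transcripts, and Trp53 loss in Rps6 WT for 9.

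**Figure D3:**
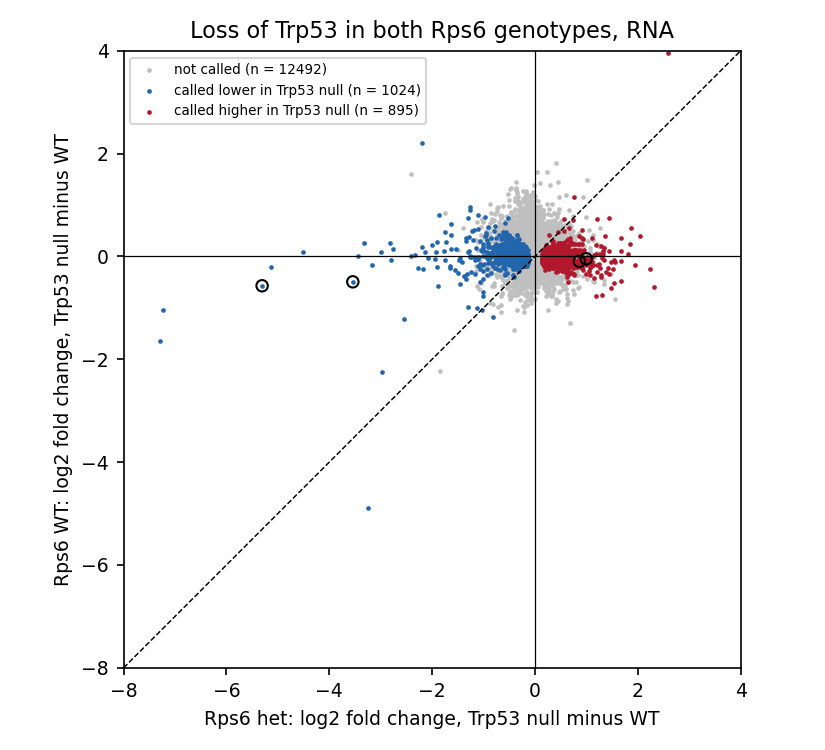
Log2 fold change of RNA upon loss of Trp53 in Rps6 WT limbs (y axis) against that in Rps6 het limbs (x axis), 1 point per transcript, with blue and red for the 1024 lower and 895 higher calls in Rps6 het and open circles for the 4 named transcripts. The called points spread along the x axis, with medians of 0.01 (lower) and −0.04 (higher) on the y axis. Single ones reach −4.897 (lower) and 3.965 (higher) there. The dashed line is that of equal change.

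In levels, the Rps6 het, Trp53 WT limbs were the group that stood apart. The mean of Rps6 WT, Trp53 WT was nearer to Rps6 het, Trp53 null than to Rps6 het, Trp53 WT for 967 of the 1024 lower transcripts (94.4%) and for 848 of the 895 higher ones (94.7%). Over all transcripts tested this was 72.8%. For Rps6 WT, Trp53 null the shares were 93.9% and 91.7%, against 66.9% of all tested. Calls made anew without both pools in doubt were another set (642 lower, 579 higher). For these the shares for Rps6 WT, Trp53 WT were 91.3% and 91.7% against 64.8%. For Rps6 WT, Trp53 null they were 94.7% and 94.6% against 68.8%. The lower transcripts had a median log2 level in Rps6 WT, Trp53 WT that was 0.34 below Rps6 het, Trp53 WT and 0.02 below Rps6 het, Trp53 null (medians of −0.341 and −0.0186). For the higher transcripts these medians were 0.36 above and 0.04 above. The transcripts were chosen for a difference between the Rps6 het groups, so these are descriptions of where the Rps6 WT levels fell.

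Footprints of the same pools changed in the same direction as RNA. Of the 966 lower transcripts that were also tested in RPF, 92.2% were lower there, against 49.5% of the 12116 transcripts tested in both. In RPF 514 of the 966 (53.2%) were called lower, against 8.14% of the 12116. Of the 853 higher ones, 96.4% were higher in RPF, against 50.5%, and 410 (48.1%) were called higher, against 6.95%. The median change of the lower transcripts was −0.30 in RNA and −0.22 in RPF, and that of the higher ones was 0.32 and 0.28. Both readouts called 926 transcripts, 924 of them in the same direction, and the 926 are 50.9% of the 1819 RNA calls and 50.7% of the 1828 RPF calls among transcripts tested in both. Over the 62 lower transcripts past 1 on the log2 scale with an RPF value, 51 were called lower in RPF, with a median of −1.38 there. RPF and RNA fold changes had r = 0.768 across the 12116 transcripts, as values from the same embryos. Of 12147 transcripts tested in RPF, 1831 (15.1%) were called, 988 lower (8.13%) and 843 higher (6.94%).

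**Figure D4:**
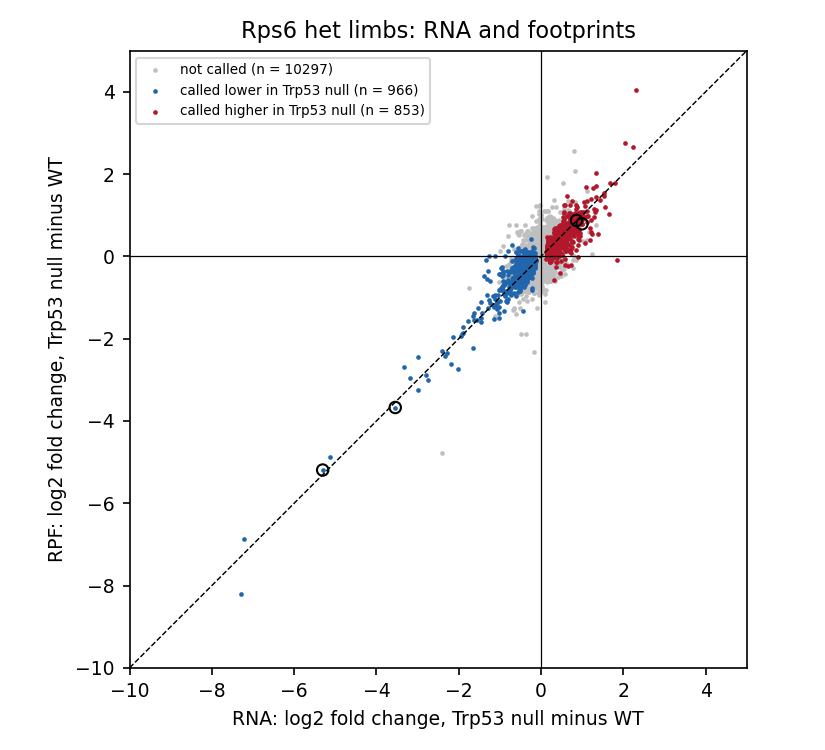
Log2 fold change of ribosome-protected fragments (y axis) against that of RNA (x axis) between Rps6 het, Trp53 null and Rps6 het, Trp53 WT limbs, for the 12116 transcripts tested in both. Blue and red mark the 966 lower and 853 higher RNA calls, and most of these points lie along the dashed line of equal change.

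Since each pool is a separate sample, calls made without a pair of pools can be measured in that pair. This was added after the data had been seen, and calls without a level in the full fit are not counted. With pool 1 of both Rps6 het genotypes left out, 463 transcripts were called lower and 335 higher. In the left-out pair 99.4% of the lower ones were lower in Trp53 null, with a median log2 difference of −0.35 against −0.42 in the pools used, and 98.2% of the higher ones were higher. With pool 3 left out, 497 of 509 lower calls (97.6%) and 421 of 443 higher calls had the same direction in the left-out pair. The differences were smaller in pair 2, which holds the shallowest of the 6 libraries; pool 2 of Rps6 het, Trp53 null also had the highest of the correlations with the Rps6 change given above (0.42), and the part of either in this was not tested. Of the calls made without it, 779 of 972 lower (80.1%) and 683 of 798 higher ones (85.6%) had the same direction in the pair, with medians of −0.19 and 0.20 against −0.39 and 0.35. Over all transcripts tested, 50.0% to 50.6% were lower in a left-out pair.

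**Figure D5:**
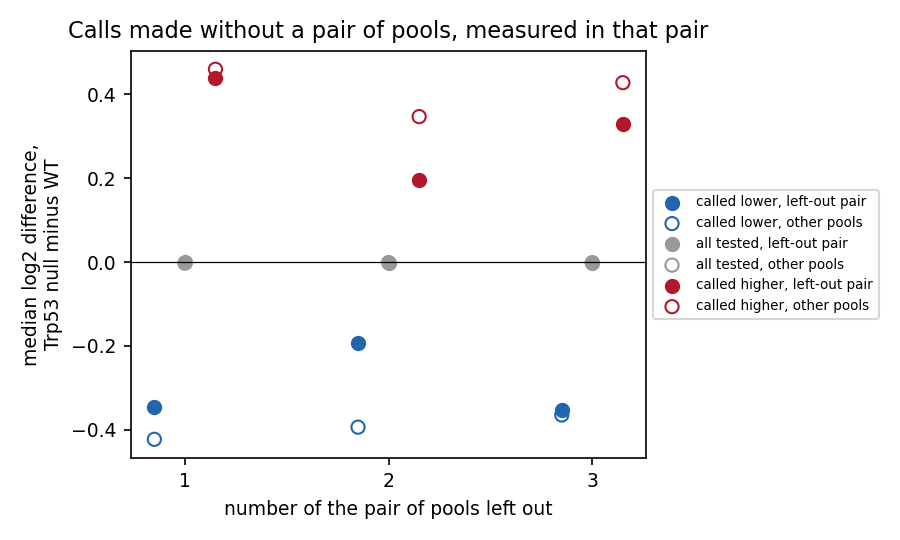
Median log2 difference between Rps6 het, Trp53 null and Rps6 het, Trp53 WT (y axis) over transcripts called without a pair of pools, by the number of the pair left out (x axis). Filled points are measured in the left-out pair and open points in the pools used, and the filled points of pair 2 (−0.19 and 0.20) lie nearest to 0.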

How the data were processed

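The members of this comparison, its lists and tests were chosen with earlier results of these data known. The authors deposited 1 table of raw counts per transcript, in whole numbers, with RNA counted over the whole transcript and RPF over the coding sequence by the table's name. Bowtie2, UMI-tools and the builds GRCm38 and mm10 are named, without versions, in the submitters' processing notes. Read assignment, strand and annotation release are not given in the sources used here, nor whether counts are of molecules.

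Counts of the 12 RNA libraries (4 genotypes of 3 pools) were fitted together with edgeR 4.0.16 in R 4.3.3 (glmQLFit, glmQLFTest, TMM scaling, no covariate). Transcripts passed filterByExpr (minimum count 10, minimum total 15). The 12 RPF libraries were fitted apart in the same way. P-values were adjusted by Benjamini-Hochberg over all transcripts tested, and the F statistic gave the SEs. CPM values used TMM-scaled totals, and log2 levels used a prior count of 2. Replicates of one genotype differed by more than sampling noise (chi-square per degree of freedom of 2.66 to 13.7), so all were counted. The named transcripts are the 2 called in each direction with the smallest p-value whose pools do not overlap, a rule made for IDs without names. The tests planned on gene lists and promoter motifs could not be run.

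On simulated counts of 14298 transcripts with 200 changed, edgeR recovered 97.1% of falls and 100% of rises of 2 on the log2 scale, 82.4% and 93.9% of those of 1, and 54.5% and 72.7% of those of 0.5. Among the transcripts left as they were, 10 (0.0709%) were called, which is a share of transcripts and not of calls. The simulated pools had independent noise and correct labels, so these values do not cover the doubt about labels. The share of transcripts changed was also smaller than the 13.3% called in the data. The adjustment of p-values depends on that share, so the recovery there may differ. Alternatives used DESeq2 1.42.0 and limma-voom (limma 3.58.1).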

Additional observations from a re-analysis of the deposited data

Results flagged for a closer look

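The loss of Trp53 had different effects on RNA in Rps6 het and in Rps6 WT limbs for 1376 transcripts, by the test of the difference itself, and for 434 without both pools whose labels are in doubt. The 4 named transcripts are among the 1376. The change in Rps6 het less that in Rps6 WT was −3.05 for ENSMUST00000020576.7, −4.74 for ENSMUST00000037353.9, 1.04 for ENSMUST00000090219.12 and 0.96 for ENSMUST00000000476.14 on the log2 scale. These transcripts were chosen for their change in Rps6 het, which enters the difference.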

How the results depend on the processing

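The direction and call of the 4 named RNA changes in Rps6 het held in all 18 alternatives run for each, with edgeR, limma or DESeq2 adjusted p-values of at most 1.31e-05. These 4 were chosen for the smallest p-values in the same libraries, which the alternatives reuse, so this is not separate support. The 1919 calls became 1224 (635 lower, 589 higher) with the 6 Rps6 het libraries alone, where fewer pools give the spread. Leaving out 1 pool, both pools of one number or both pools in doubt gave 798 to 1854 calls (463 to 984 lower, 335 to 870 higher). The other alternatives (DESeq2 size factors, no filter, DESeq2, limma-voom, thinning, no 10 most abundant transcripts) gave 1547 to 2036. For Trp53 loss in Rps6 WT, 17 calls became 252 without a filter, 251 with the 6 Rps6 WT libraries alone, 64 by DESeq2 and 6 to 14 without 1 pool; the cause was not tested. The interaction gave 434 calls without both pools in doubt and 641 to 1806 without 1 pool, and RPF counts stayed within 1.5 times in all 10 alternatives.

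Same-numbered pools of the Rps6 het genotypes are different embryos. Their deviations from the group means had r = −0.19 to −0.07 over transcripts, against −0.19 to 0.23 for pools of unlike number. With 3 pools per group these deviations are tied to one another, so they cannot decide whether pools of one number share a step. With a replicate block there were 2342 calls in Rps6 het, 47 in Rps6 WT and 2000 for the interaction, against 1919, 17 and 1376 without it.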
